A study of Mus musculus with 2 samples.

Results

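The genes of the TGF-β pathway described here are the ligand gene Tgfb1, the receptor genes Tgfbr1, Tgfbr2 and Tgfbr3, and the signal transducer genes Smad1, Smad2, Smad3, Smad4, Smad5 and Smad7. They were taken by symbol, with no threshold on their values but with earlier results of these data known, and make up 10 of the 23284 gene symbols in each library. RNA-seq measured their expression in E14.5 fetal liver (FL) cells that are lineage marker-negative, Sca-1-positive, c-Kit-positive (LSK) and CD48-, a fraction enriched for hematopoietic stem cells (HSCs). One group came from WT fetuses and the other from ESAM-null fetuses, homozygous knockouts for the endothelial cell-selective adhesion molecule gene Esam in every tissue, so the environment of the sorted cells lacked Esam as well. Each genotype had 1 library, and the sources used here do not state how many fetuses or cells it came from. The sample labels have the sorted cells plated and grown in methylcellulose, but the study's text speaks of sorted FL cells, and the libraries were taken here to be of sorted cells. Esam itself dropped from 117.6 FPKM in WT to 12.1 FPKM in ESAM-null, a 9.69-fold difference.

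TGF-β is secreted in a latent complex and, once released, brings together the type II receptor Tgfbr2 and the type I receptor Tgfbr1, while Tgfbr3 (betaglycan) presents ligand to them. The activated type I receptor phosphorylates the receptor-regulated Smads, classically Smad2 and Smad3 for TGF-β and activin and Smad1 and Smad5 for bone morphogenetic proteins (BMPs), which enter the nucleus with the common partner Smad4. Smad7 and Smad6 are inhibitory Smads that the pathway itself induces. In blood formation the pathway is known for holding HSCs in quiescence. RNA levels do not show receptor activity or Smad phosphorylation.

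Expression is given as FPKM, the fragments on a gene per kilobase of its exons and scaled to library size, so levels of different genes can be set side by side. The WT library listed 14305 genes above 0 and the ESAM-null library 13039. From the steps between the lowest values, the value of 1 read was found, which put the libraries near 9372000 (WT) and 10138000 (ESAM-null) reads on the authors' scale, and approximate reads per gene and their counting intervals were taken from these. Every interval below is a 95% exact interval that covers counting error only. Since WT and ESAM-null had 1 library each, no difference could be checked in replicates and no p-value is given. A gene was called past 2-fold when its FPKM in ESAM-null over that in WT, with no pseudocount, was at most 0.5 or at least 2 and it reached 1 FPKM in either library.

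The genes of the sorted fraction were present in both libraries. Kit was 94.4 in WT against 76.4 FPKM in ESAM-null, Ly6a (Sca-1) was 99.8 and 96.7 FPKM, and Cd34, the most abundant gene of that list, was 230 and 240 FPKM. None of the 7 genes on the list was past 2-fold. Although the cells were sorted as CD48-, Cd48 RNA was present at 16.6 (WT) and 22.0 FPKM (ESAM-null). Genes on marker lists of other FL cells were also detected, some above most of the 10 pathway genes. Gp9 was 57.8 (WT) and 65.9 FPKM (ESAM-null) and Emcn 43.2 and 60.0 FPKM. These lists are not specific to other cells. The study's text names Tie2 (Tek), CD31 (Pecam1) and VE-cadherin (Cdh5), all on the endothelial list, among antigens of developing HSCs. Which cells gave these levels was not tested. Summed FPKM in WT and in ESAM-null came to 29.5 and 30.6 over 9 macrophage genes (most abundant Cd68), 78.8 and 94.3 over 8 endothelial genes (Emcn), 42.0 and 37.1 over 8 hepatocyte genes (Trf), 2.29 and 0.775 over 8 stellate and mesenchymal genes (Col1a2), and 87.9 and 98.5 over 8 megakaryocyte and platelet genes (Gp9). Past 2-fold were 3 of 7 macrophage genes that reached 1 FPKM (all lower), 2 of 6 endothelial genes (both higher) and 3 of 5 hepatocyte genes (2 lower). So were 2 of 6 megakaryocyte genes (1 lower) and the 1 mesenchymal gene (lower). The 3 macrophage, 2 endothelial, 2 lower hepatocyte and 1 mesenchymal genes reached 1 FPKM in 1 library alone. Of all genes that reached 1 FPKM in a library, 12.8% were at least 2-fold lower and 7.42% higher. The shares were 29.96% and 19.7% at a mean of 1 to 3 FPKM, and 57.2% and 31.6% below 1 FPKM. Members of a list went both ways: of the macrophage genes, C1qa was listed at 0 in ESAM-null, whereas C1qc was 3.38 (WT) and 5.07 FPKM (ESAM-null), Csf1r 2.17 and 3.59 FPKM and Cd68 14.2 and 19.98 FPKM. Of the hepatocyte genes, Alb was listed at 0 in ESAM-null, whereas Afp was 4.35 (WT) and 6.69 FPKM (ESAM-null) and Apoa1 1.09 and 7.52 FPKM. Timd4 and Fgb were listed at 0 in both libraries. Megakaryocytes and platelets are rich in TGF-β1, and macrophages and endothelium carry the receptors. The part of such cells in the values below was not tested, and in bulk libraries fewer cells of a type and less RNA per cell cannot be told apart.

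All 10 genes were detected above 5 FPKM in both libraries, and none of them differed by 2-fold. Tgfb1 and Smad4 were the most abundant in both libraries, followed by Smad1 and Tgfbr2. Smad2 and Smad3 showed the widest differences, in opposite directions, with Smad2 higher and Smad3 lower in ESAM-null. Of all 12066 genes that reached 1 FPKM in a library, 12.8% were at least 2-fold lower and 7.42% at least 2-fold higher in ESAM-null, against 0 and 0 of the 10. Over the 5718 genes within the range of mean levels of the 10 the shares were smaller, 5.74% and 2.96%. A count of 0 of 10 is near those shares. At a threshold of 1.5-fold 1 of the 10 was lower (Smad3) and 1 higher (Smad2), where 21.8% and 17.4% of all genes passed. The ratio was below 1 for 7 of the 10 genes and above 1 for 3 (Smad1, Smad2 and, before but not after rescaling to equal totals, Tgfbr2), and the median log2 ratio was -0.26, beside -0.00024 over all 12066 genes and -0.05 over the 5718 genes within the range of mean levels of the 10. For genes with a mean of 5 to 10 FPKM, a range that holds 6 of the 10, the median ratio was 0.880. It rose with level, to 1.10 at 40 to 100 FPKM and 1.28 above 100 FPKM.

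**Figure D1:**
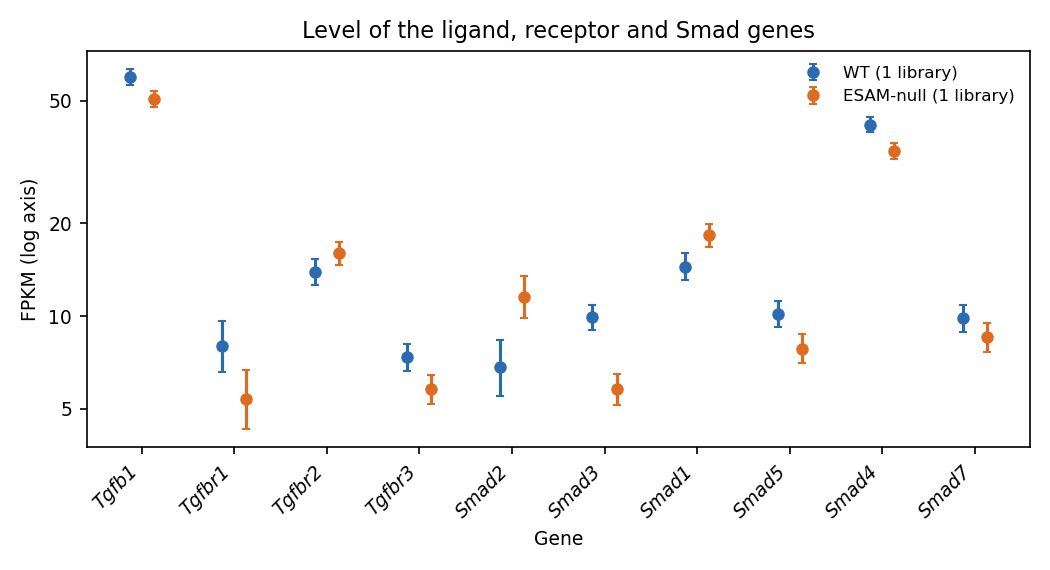
FPKM (log axis) of the ligand, receptor and Smad genes in the WT library (blue) and the ESAM-null library (orange), with 95% exact Poisson intervals from approximate reads. Tgfb1 (59.8 and 50.7 FPKM) and Smad4 (41.8 and 34.3 FPKM) lie above the other 8 genes in both libraries, and Smad2 and Smad3 change places.

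Tgfb1 encodes the TGF-β1 ligand and lies on chromosome 7 from 25687002 to 25705077 of GRCm38, the build also called mm10. Its level was 59.8 in WT against 50.7 FPKM in ESAM-null, a ratio of 0.848 (interval 0.778 to 0.924) from about 1108 and 1016 reads. The WT value was above that of 83.1% of the genes measured above the filter, so the ligand gene was among the more abundant transcripts of this fraction. The other TGF-β ligand genes were near or at 0, Tgfb2 with 0.117 in WT against 0.518 FPKM in ESAM-null from about 5 and 26 reads, and Tgfb3 listed at 0 in both libraries.

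Of 11 genes that store and release latent TGF-β 4 reached 1 FPKM. Of the 4, 0 was past 2-fold, where 12.8% of all genes were lower and 7.42% higher, so 0 of 4 is near the share. The median log2 ratio of the 4 was -0.31, beside -0.00024 over all genes. Lrrc33, which tethers latent TGF-β to the surface of blood cells, was the most abundant, at 101 in WT against 97.7 FPKM in ESAM-null, a ratio interval of 0.906 to 1.02. It exceeded the ligand gene itself in both libraries. Lrrc32, its counterpart known from regulatory T cells and platelets, was 1.91 in WT against 2.11 FPKM in ESAM-null. Furin, a protease that cleaves the TGF-β precursor, was 8.99 in WT against 5.73 FPKM in ESAM-null, or 1.57-fold lower (1.32 to 1.86), and Itgav, an integrin subunit that frees the ligand, was 2.52 and 1.69 FPKM.

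The signaling receptors differed from each other, with the type I gene lower in ESAM-null and the type II gene near its WT level. Tgfbr1, on chromosome 4 from 47353222 to 47414931, was 8.02 in WT against 5.39 FPKM in ESAM-null, or 1.49-fold lower (1.11 to 1.999) from about 114 and 83 reads. Tgfbr2, on chromosome 9 from 116084293 to 116175360, was 13.9 in WT against 16.01 FPKM in ESAM-null, a ratio of 1.15 (1.01 to 1.31), but its log2 ratio turned from 0.20 to -0.08 when each library was rescaled to the same total. The type II gene was thus above the type I gene in both libraries, with a ratio of Tgfbr2 to Tgfbr1 of 1.73 in WT and 2.97 in ESAM-null. That ratio, which does not depend on scaling, was 1.71 times higher in ESAM-null (exact interval 1.24 to 2.37).

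Tgfbr3, on chromosome 5 from 107106570 to 107289629, was 7.36 in WT against 5.80 FPKM in ESAM-null, or 1.27-fold lower (1.10 to 1.47). It shares 297 exon bases with the unclassified gene model Gm43422 on the same strand, and reads there cannot be assigned to either. The ratio of Tgfbr3 to Tgfbr1 was 0.918 in WT and 1.08 in ESAM-null, and the interval of the change, 0.843 to 1.63, holds 1 and is too wide to show that they moved alike. The summed level of the 3 receptor genes was 29.3 in WT against 27.2 FPKM in ESAM-null.

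Smad2 and Smad3, the transducers of TGF-β and activin signals, changed places. Smad2, on chromosome 18, was 6.84 in WT against 11.6 FPKM in ESAM-null, or 1.69-fold higher (1.31 to 2.203) from about 93 and 170 reads. Smad3, on chromosome 9 from 63646767 to 63757994, was 9.92 in WT against 5.79 FPKM in ESAM-null, or 1.71-fold lower (1.48 to 1.99) from about 455 and 287 reads. In WT the Smad3 level was the higher of the pair, and in ESAM-null the Smad2 level was. The ratio of Smad2 to Smad3 was 0.690 in WT and 2.0 in ESAM-null, a 2.90-fold difference (exact interval 2.14 to 3.93). On the deposited scale their summed level was almost the same in both libraries, 16.8 in WT against 17.4 FPKM in ESAM-null. Smad2 made up 40.8% of it in WT and 66.7% in ESAM-null.

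Smad1 and Smad5, the transducers of BMP signals, also moved in opposite directions by a smaller amount. Smad1, on chromosome 8 from 79338395 to 79399518, was 14.49 in WT against 18.3 FPKM in ESAM-null, a ratio of 1.27 (1.11 to 1.44). Smad5, on chromosome 13 from 56703010 to 56742377, was 10.2 in WT against 7.85 FPKM in ESAM-null, or 1.30-fold lower (1.12 to 1.499), and shares 100 exon bases with the small RNA gene Gm27301. Smad1 was the higher of the pair in both libraries. The ratio of Smad1 to Smad5 was 1.42 in WT and 2.33 in ESAM-null, 1.64-fold different (1.34 to 1.996), and the sum was 24.7 in WT against 26.2 FPKM in ESAM-null. Over the 4 receptor-regulated Smads the summed level was 41.4 in WT against 43.5 FPKM in ESAM-null, a ratio of 1.05 on the deposited scale.

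**Figure D2:**
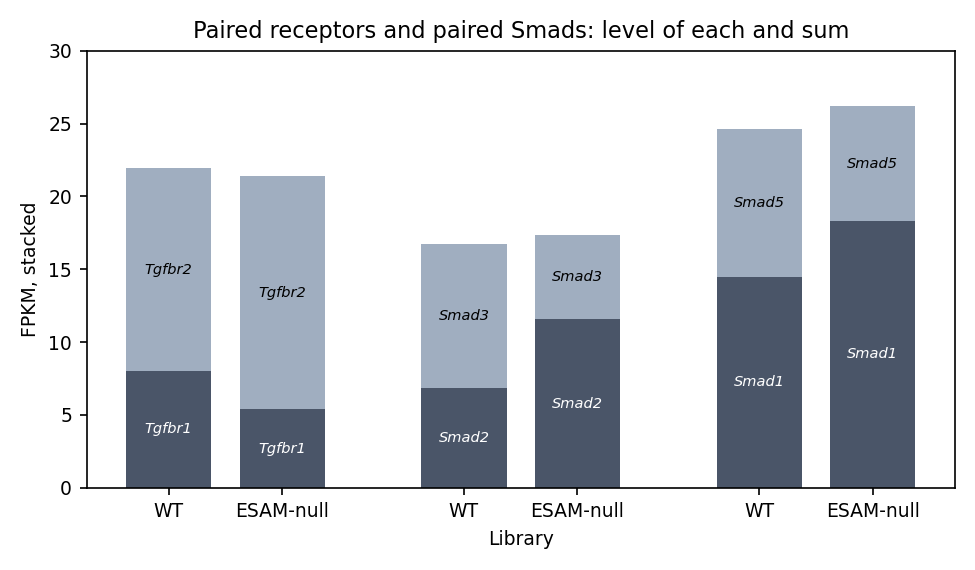
Stacked FPKM of Tgfbr1 and Tgfbr2, of Smad2 and Smad3, and of Smad1 and Smad5 in the WT and the ESAM-null library. On the deposited scale the height of each pair of bars is similar between libraries (16.8 and 17.4 FPKM for Smad2 and Smad3). The share of each gene differs (Smad2 40.8% and 66.7%).

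The pairs were formed by the role of the genes after their values had been seen. The interval of each pair's ratio is a counting interval, and how often a pair of other genes of the same level differs by as much was not tested. Smad2 has RefSeq-linked transcripts of 1645 to 8089 bases and Tgfbr1 of 1713 to 5756 bases. The shortest was used so that the intervals were the widest, and a change in the mix of transcript forms cannot be told apart from a change in the gene's level.

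Smad4, the common partner of both branches, was the most abundant Smad, with 41.8 in WT against 34.3 FPKM in ESAM-null, or 1.22-fold lower (1.12 to 1.32) from about 1247 and 1108 reads. It was about as abundant as the 4 receptor-regulated Smads together in WT. The inhibitory Smad7, which recruits ubiquitin ligases to the type I receptor, was 9.84 in WT against 8.54 FPKM in ESAM-null, a ratio of 0.868 whose interval (0.748 to 1.01) holds 1. Smad7 was the only 1 of the 10 genes for which the counting interval held a ratio of 1. Smad4 and Smad7, both on chromosome 18 like Smad2, kept nearly the same proportion, 4.25 in WT and 4.02 in ESAM-null.

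Smad6, the other inhibitory Smad, lies on chromosome 9 from 63953076 to 64022059 and was 17.6 in WT against 16.6 FPKM in ESAM-null, a ratio interval of 0.824 to 1.07. The inhibitory Smads were thus similar in both libraries on the deposited scale, with a sum of 27.5 in WT against 25.1 FPKM in ESAM-null. Smad9, the remaining BMP-responsive Smad, was 0.021 in WT against 0.038 FPKM in ESAM-null. Among all Smads, Smad1, Smad2, Smad3, Smad4, Smad5, Smad6 and Smad7 were each above 5 FPKM in both libraries.

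In WT the levels ran from Tgfb1 over Smad4 to Smad1, and the interval of each was apart from that of the next. Smad1 and Tgfbr2 overlapped in their intervals, and Tgfbr2 was apart from Smad5. Each neighbouring pair overlapped from Smad5 over Smad3, Smad7, Tgfbr1 and Tgfbr3 to Smad2, the lowest. In ESAM-null the upper 4 genes kept their order, again with overlap between Smad1 and Tgfbr2. Smad2 stood in position 5 there, from position 10 in WT, and its interval was apart from those above and below it. Smad7 and Smad5 overlapped, as did Tgfbr3, Smad3 and Tgfbr1, the lowest. Smad3 was in position 6 in WT and 9 in ESAM-null.

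Set against other genes of the same level, none of the 10 ratios stood outside the range between percentiles 5 and 95. Among 1821 genes with a mean of 5 to 10 FPKM, which include Tgfbr1, Tgfbr3, Smad2, Smad3, Smad5 and Smad7, that range ran from 0.340 to 2.15. Smad2 was at percentile 90.0 and Smad3 at percentile 20.9 of those genes. For Tgfbr2 and Smad1 the same range was 0.453 to 1.85 over 2004 genes of 10 to 20 FPKM, for Smad4 it was 0.568 to 1.66 over 1827 genes of 20 to 40 FPKM, and for Tgfb1 it was 0.698 to 1.71 over 1655 genes of 40 to 100 FPKM. Their percentiles lay between 16.1 (Tgfb1) and 78.1 (Smad1). The median size of the difference was 1.27-fold over the 10 genes and also 1.27-fold over the same 5718 genes. For each of the 10 genes the range over genes of like level was wider than the counting interval.

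**Figure D3:**
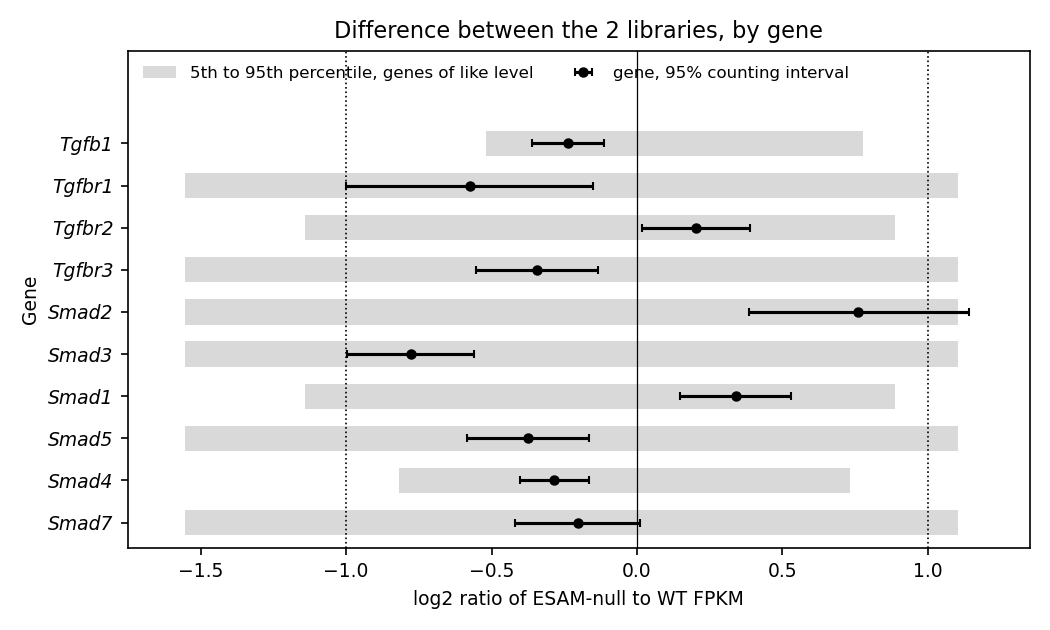
Log2 of the FPKM in ESAM-null over that in WT for each gene (points) with its 95% counting interval (bars), over the range between percentiles 5 and 95 of the log2 ratio of all genes of like mean FPKM (grey). Dotted lines mark a 2-fold difference, and all 10 points lie between them and inside the grey ranges, from -0.78 (Smad3) to 0.76 (Smad2).

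Rescaling each library to the same total moved every log2 ratio by -0.28, because the deposited FPKM summed to 751784 in WT and 911736 in ESAM-null. The log2 ratios of the summed levels move by the same amount, whereas the share of each gene in a pair does not change. On that scale Smad3 passed 2-fold, with a log2 ratio of -1.06, so 1 of the 10 genes was lower and 0 higher, where 19.5% of all genes were lower and 5.47% higher. Smad1 and Smad2 kept ratios above 1, with log2 ratios of 0.06 and 0.48.

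Across the 104 other pathway genes in the data, 67 reached 1 FPKM, 5 were at least 2-fold lower and 6 at least 2-fold higher, where 12.8% and 7.42% of all genes were. The median log2 ratio was -0.11. Of these 11 genes 8 were under 3 FPKM in both libraries, and the exceptions were Gdf3, Bambi and Id1. Among all genes with a mean of 1 to 3 FPKM, 29.96% were at least 2-fold lower and 19.7% higher, and below 1 FPKM 57.2% were lower and 31.6% higher.

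**Figure D4:**
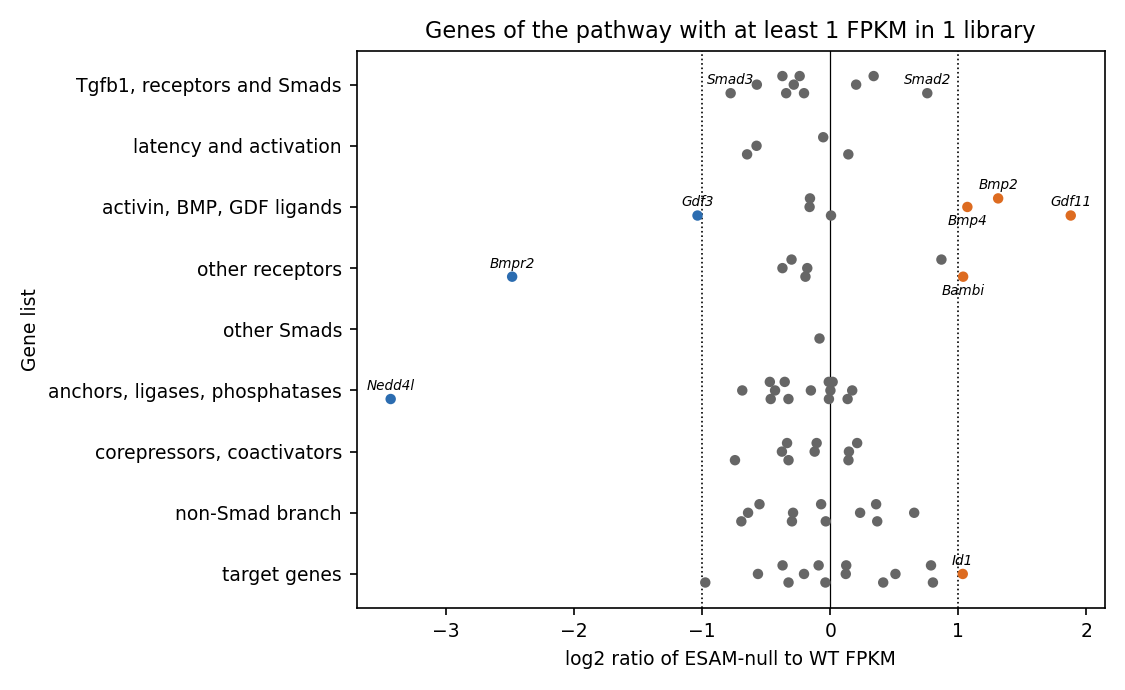
Log2 of the FPKM in ESAM-null over that in WT for genes that reached 1 FPKM in either library, by role in the pathway, with genes at least 2-fold lower in blue and at least 2-fold higher in orange. Genes listed at 0 in 1 library (Gdf9, Gdf15 and Lefty1) are not drawn. The genes furthest from 0 are Nedd4l (-3.43) and Bmpr2 (-2.48) on the lower side and Gdf11 (1.88) on the higher side.

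Among 16 genes for Smad anchors, ubiquitin ligases and phosphatases, 14 reached 1 FPKM. Of these 1 was at least 2-fold lower and 0 higher, where 12.8% and 7.42% of all genes were. Nedd4l, a ubiquitin ligase that marks activated Smad2 and Smad3 for degradation, was 1.85 in WT against 0.171 FPKM in ESAM-null, or 10.8-fold lower (4.69 to 30.5) from about 60 and 6 reads. It passed the filter through WT alone and stood at percentile 7.46 among genes of like level. Fkbp1a, which binds the type I receptor and keeps it inactive, was the most abundant of the list at 510 in WT against 575 FPKM in ESAM-null. The ligase genes Smurf1 and Smurf2 differed by less than Nedd4l. Smurf1 was 7.18 in WT against 6.46 FPKM in ESAM-null and Smurf2 was 4.59 and 3.33 FPKM. Trim33, a ligase and partner of Smad2 and Smad3 in blood cells, was 4.34 in WT against 2.70 FPKM in ESAM-null, or 1.61-fold lower (1.28 to 2.02).

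Of 10 corepressor and coactivator genes 9 reached 1 FPKM. Of the 9, 0 was past 2-fold, where 12.8% of all genes were lower and 7.42% higher. Hdac1, a histone deacetylase, was the most abundant at 169 in WT against 187 FPKM in ESAM-null, at percentile 27.3 among genes of like level. Ski, which binds Smad3 and Smad4 and represses their targets, was 14.6 in WT against 8.73 FPKM in ESAM-null, or 1.67-fold lower (1.49 to 1.88). The non-Smad branch was listed as kinases and adaptors that carry the signal to p38 and JNK, together with the GTPase gene Rhoa. It had 11 of 11 genes at 1 FPKM, and 0 of them was past 2-fold. Among all genes with a mean of 10 to 20 FPKM the shares were 6.69% lower and 3.59% higher, and they were smaller above that. A count of 0 in lists this short is thus near the share and does not show that these branches were unchanged. Rhoa was the most abundant of that branch, at 209 in WT against 270 FPKM in ESAM-null, at percentile 51.5 among genes of like level. Map3k7 (TAK1), the kinase at the head of the p38 and JNK route, was 6.88 and 10.8 FPKM, a ratio interval of 1.38 to 1.80.

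Of 19 textbook target genes of TGF-β and BMP, 14 reached 1 FPKM, and the median log2 ratio was 0.04. Among the 14, 0 was at least 2-fold lower and 1 higher, where 12.8% and 7.42% of all genes were. The gene past 2-fold was Id1, which encodes an inhibitor of basic helix-loop-helix factors and is a classical target of Smad1 and Smad5. Id1 was 47.3 in WT against 97.0 FPKM in ESAM-null, or 2.05-fold higher (1.80 to 2.34). On the scale of equal totals its log2 ratio was 0.76, which is within 2-fold. The other Id genes in the list were also higher, Id2 with 23.2 in WT against 40.5 FPKM in ESAM-null, a ratio interval of 1.48 to 2.05, and Id3 with 84.7 and 146 FPKM, an interval of 1.59 to 1.88. Among genes of like level Id1 was at percentile 98.7, Id2 at 96.1 and Id3 at 92.9. The summed level of the 3 Id genes was 155 in WT against 284 FPKM in ESAM-null, 1.83 times higher.

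The other targets lay on both sides of a ratio of 1. Cdkn1c, which encodes the cell cycle inhibitor p57 and had the highest mean level of the list, was 123 in WT against 134 FPKM in ESAM-null. Its ratio stood at percentile 25.6 among genes of like level. The inhibitory Smads, which stand in the same list, had ratios just below 1, as given above. Cdkn1a (p21) was 15.7 in WT against 22.3 FPKM in ESAM-null, a ratio interval of 1.11 to 1.84, and Tgfbi was 11.8 and 15.8 FPKM, an interval of 1.14 to 1.56. Junb was 85.1 in WT against 65.8 FPKM in ESAM-null, and Gadd45b was 4.71 and 2.39 FPKM. Cdkn2b, the cell cycle inhibitor p15 that TGF-β induces in epithelial cells, was listed at 0 in both libraries.

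Promoter windows of 300 bases, placed at the starts of RefSeq gene models and mostly before them, were searched on both strands for the palindromic Smad element GTCTAGAC, the shorter Smad element CAGAC and the BMP-type element GGCGCC. The palindrome does not itself contain CAGAC, so no match was counted under both. Of 32851 mouse windows, 0.213% held GTCTAGAC, 49.6% CAGAC and 11.9% GGCGCC. The windows shown are those of target genes, the inhibitory Smad6 with a ratio near 1 and the higher Id genes Id2 and Id3, from RefSeq on GRCm38.p6, each 5′ to 3′ on the gene's strand with the motifs in capitals.
Smad6, chr9:64022010-64022309, minus strand: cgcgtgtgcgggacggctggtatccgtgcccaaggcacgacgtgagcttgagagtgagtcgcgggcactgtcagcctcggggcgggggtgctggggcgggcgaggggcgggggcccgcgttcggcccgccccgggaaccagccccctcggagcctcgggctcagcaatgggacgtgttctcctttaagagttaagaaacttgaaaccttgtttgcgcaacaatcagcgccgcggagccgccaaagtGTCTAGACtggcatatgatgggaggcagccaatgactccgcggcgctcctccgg
Id2, chr12:25096043-25096342, minus strand: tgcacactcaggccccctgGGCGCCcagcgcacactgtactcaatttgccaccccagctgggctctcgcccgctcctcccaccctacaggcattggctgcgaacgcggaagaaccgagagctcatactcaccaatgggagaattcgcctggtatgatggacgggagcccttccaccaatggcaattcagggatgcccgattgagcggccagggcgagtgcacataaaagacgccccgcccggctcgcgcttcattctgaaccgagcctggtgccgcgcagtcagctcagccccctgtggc
Id3, chr4:136143572-136143871, plus strand: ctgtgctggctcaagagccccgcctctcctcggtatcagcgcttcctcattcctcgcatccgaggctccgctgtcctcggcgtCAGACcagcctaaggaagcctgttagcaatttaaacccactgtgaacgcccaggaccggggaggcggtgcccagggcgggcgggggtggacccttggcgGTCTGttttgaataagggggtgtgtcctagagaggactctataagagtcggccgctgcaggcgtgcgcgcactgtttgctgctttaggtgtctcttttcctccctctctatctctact
The Smad6 window held the palindrome, the Id2 window held GGCGCC and the Id3 window held CAGAC or its reverse complement in 2 places. The Id2 and Id3 windows lie inside the bounds that GENCODE gives these genes (chromosome 12 from 25093799 to 25097140 and chromosome 4 from 136143497 to 136145755), so the RefSeq starts used are downstream of the outermost annotated starts. A match is a description of the letters and was not tied to the RNA values.

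Windows were found for 6 of the 10 genes, and none was found for Id1 or Bambi. The first windows of Tgfbr1 and Smad5 held GGCGCC, and the window of Tgfbr2 and a further window of each of Tgfbr1 and Smad5, inside the gene, held CAGAC. The windows of Tgfb1, Smad1 and Smad3 held none of the 3 motifs.

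Ligand genes of the related activin, BMP and GDF branches were mostly low. Of 24 such genes 10 reached 1 FPKM. Among the 10, 3 were at least 2-fold lower and 4 higher, where 12.8% and 7.42% of all genes were. However, 6 of these 7 passed the filter through the library where they were high. At such levels differences past 2-fold were common, with 29.96% of all genes lower and 19.7% higher at a mean of 1 to 3 FPKM. Of the 4 genes that reached 1 FPKM in both libraries 1 was lower (Gdf3) and 0 higher. Gdf3, the most abundant, was 10.1 in WT against 4.92 FPKM in ESAM-null, or 2.05-fold lower (1.59 to 2.65) from about 182 and 96 reads. It stood at percentile 12.5 among genes with a mean of 5 to 10 FPKM, of which 13.8% were at least 2-fold lower. Gdf15, a stress-induced member, and Lefty1, an inhibitor of Nodal, were 1.94 and 2.81 FPKM in WT, about 21 and 37 reads, and were listed at 0 in ESAM-null. The opposite held for Gdf9, known from the oocyte, which was listed at 0 in WT and was 1.28 FPKM in ESAM-null from about 21 reads. Gdf11 was 0.331 in WT against 1.22 FPKM in ESAM-null, a ratio of 3.68 (1.92 to 7.62) at percentile 74.7 among genes of like level. The BMP ligand genes Bmp2, 0.459 and 1.14 FPKM, and Bmp4, 0.831 and 1.75 FPKM, were higher in ESAM-null from at most 39 reads in a library.

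The receptors of these branches differed one by one. Of 13 other receptor genes 7 reached 1 FPKM, with a median log2 ratio of -0.19. Among the 7, 1 was at least 2-fold lower and 1 higher, where 12.8% and 7.42% of all genes were. Bmpr2, the type II receptor for BMPs, was 1.16 in WT against 0.207 FPKM in ESAM-null, or 5.59-fold lower (3.67 to 8.82) from about 138 and 27 reads. It passed the filter through WT alone, stood at percentile 43.3 among genes of like level, and its log2 ratio of -2.48 became -0.84 with a pseudocount of 1 FPKM. Bambi, a pseudoreceptor without a kinase that blocks signaling, was 3.75 in WT against 7.70 FPKM in ESAM-null, or 2.05-fold higher (1.71 to 2.47). Bambi's call was lost on the scale of equal totals, with a log2 ratio of 0.76. Eng (endoglin), an accessory receptor found on HSCs and endothelium, was the most abundant at 44.9 in WT against 39.2 FPKM in ESAM-null. The type I receptor gene Acvr1 was 2.48 in WT against 4.52 FPKM in ESAM-null, a ratio of 1.83 (1.34 to 2.52), while Bmpr1a and Bmpr1b were listed at 0 in both libraries. The BMP type I receptor genes at 1 FPKM or more thus came down to Acvr1, and the activin type II genes Acvr2b (19.5 and 15.1 FPKM) and Acvr2a (1.98 and 1.60 FPKM) were above Bmpr2 in both libraries.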

How the data were processed

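RNA-seq was performed on 1 WT and 1 ESAM-null library of E14.5 FL LSK CD48- cells. cDNA was made with a low-input kit, sheared to 200 to 500 bp and read as 75 bp single ends. The authors deposited FPKM per gene symbol. The submitters' notes on processing list the mm10 build and, without roles, Bowtie2 2.2.3, TopHat2 2.0.13, Cuffnorm 2.2.1 and SAMtools 0.1.19. The annotation and strand setting are not stated there.

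From the deposited FPKM, plain ratios were taken, with a filter of 1 FPKM in at least 1 library and a threshold of 2-fold. Approximate reads were FPKM times effective transcript length (GENCODE M21, the shortest RefSeq-linked transcript, fragments of 200 bp with an SD of 80 bp assumed) times the value of 1 read. Lengths were found for 98.0% of genes. Low genes within 0.05 of a whole read made up 63.4% (WT) and 66.2% (ESAM-null). Ratio intervals are Clopper-Pearson, level intervals exact Poisson, and pair intervals exact conditional odds-ratio intervals. All are at 95%, and PCR copies are not separate molecules. The value of 1 read, the fold calls and the ratio intervals were tested on simulated Poisson counts. Those counts were made with the same transcript and fragment lengths, so they could not test these assumptions. The level and pair intervals were not tested.

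The genes and the 16 gene lists (9 of pathway roles and 7 of markers among them) were chosen with earlier results of these data known. Named were all 10 genes and, per pathway list, up to 4 genes past 2-fold and the most abundant one. Per marker list the most abundant gene and those the sort names were given. Others, among them Bmp2, Bmp4, Acvr1, Acvr2a, Acvr2b, Bmpr1a, Bmpr1b, Furin, Itgav, Lrrc32, Smurf1, Smurf2, Trim33, Ski, Map3k7, Id2, Id3, Cdkn1a, Tgfbi, Junb, Gadd45b, Cdkn2b, Tgfb2, Tgfb3, Smad9, C1qa, C1qc, Csf1r, Alb, Afp, Apoa1, Timd4 and Fgb, were named after their values were seen, and some list genes are not reported here. Alternatives were other filters, pseudocounts, scalings and thresholds. Calculations were run in Python 3.11.15 with scipy 1.17.1, pandas 2.3.3 and numpy 2.4.6, and plots in matplotlib 3.10.9.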

Additional observations from a re-analysis of the deposited data

How the results depend on the processing

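The count of the 10 genes past 2-fold was 0 in each direction under every alternative except that 1 was lower after rescaling to equal totals, and that 1 was lower and 1 higher at 1.5-fold. Their median log2 ratio, -0.26, was -0.54 after rescaling and between -0.28 and -0.24 when each gene was left out in turn. Of 60 single-gene values of the 10 genes under other scalings and pseudocounts, 52 moved by less than their counting interval and 8 by more, all 8 under rescaling. For the other pathway genes the counts were 5 lower and 6 higher, and they became 15 and 11 with any value above 0, 12 and 10 at 0.1 FPKM, 1 and 2 at 5 FPKM, 1 and 2 at 1 FPKM in both libraries, 3 and 2 with a pseudocount of 1 FPKM, 8 and 3 after rescaling, and 11 and 10 at 1.5-fold. At 3-fold 2 were higher. Their median log2 ratio of -0.11 was -0.40 after rescaling. The stricter filters test fewer genes by construction, and rescaling shifts every ratio alike. No paired analysis was possible because each genotype has 1 library. With 1 library each, differences between litters, sorts or library preparations cannot be told apart from genotype. How multiply mapped reads were counted is not stated.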
